A study of Homo sapiens with 6 samples.

Results

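The genes described here lie in band 8q24, on the long arm of human chromosome 8, with other genes between them. They run from the hyaluronan synthase gene HAS2 to the splicing regulator gene KHDRBS3. They were listed by name in map order, and each was read from the array row that carries its symbol alone. Of 41 listed genes 38 had such a row, among 18417 genes with a single-symbol row in all. TRMT12 was read under its current symbol TYW2. C8orf76 and ZHX1 share their rows with a read-through gene, and PVT1 was not analysed here. TATDN1 had 2 rows, of which the one with the higher mean over the 6 arrays was used.

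The RNA came from RD18, an established line of embryonal rhabdomyosarcoma, a tumour of the skeletal muscle lineage. The derivative RD18 NpBI-22 makes the microRNA miR-22 when doxycycline is added. It was profiled induced, after 6 days of doxycycline at 1 µg/ml (2 biological replicates), and non-induced, without doxycycline (2 replicates). The derivative RD18 NpBI-206AS served as an additional control, induced in the same way (1 array) and non-induced (1 array). What the NpBI-206AS construct expresses, and whether either derivative is a single clone, is not stated in the labels. Values are log2 expression, so a difference of 1 is a 2-fold difference.

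This band is known above all for MYC, a transcription factor that drives cell growth and ribosome production and works as a dimer with MAX. Extra copies of this chromosome are frequent in embryonal rhabdomyosarcoma, and the RD line has been described with an amplified MYC. A microRNA lowers mRNAs that pair with its seed, mostly in their 3′ untranslated regions. DNA copy number was not measured in these samples.

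The agent that was switched on is shown here by its mature sequences from RefSeq (GRCh38.p14), with the seed, bases 2 to 8, in capitals. The labels do not name the arm, so both are given. They are encoded on the minus strand of chromosome 17, at chr17:1713914-1713935 for the 3p arm and chr17:1713952-1713973 for the 5p arm.
hsa-miR-22-3p: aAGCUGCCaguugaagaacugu
hsa-miR-22-5p: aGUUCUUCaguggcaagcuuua
The labels were checked on MIR22HG, the host gene of miR-22. It read 10.02 and 10.01 in induced NpBI-22 cells, against 6.27 and 6.72 in non-induced NpBI-22 cells. In NpBI-206AS cells it read 6.32 induced and 6.41 non-induced.

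The list was selected on log2 values of these same arrays, and which comparison led to it is not recorded. Differences of the listed genes that involve the induced NpBI-22 arrays are therefore a description. Where a count of them past limma's threshold is given, it stands beside the share of all genes and supports nothing, since the choice of the list used the same values. Both induced NpBI-22 arrays carry the code prefix R715 in their labels, which no other array has. The labels do not explain the prefix. For those 2 arrays, whatever it stands for cannot be told apart from induction. Non-induced NpBI-22 replicate 1 has the prefix R509, and replicate 2 shares R587 with both NpBI-206AS arrays. Array medians lay between 5.66 and 5.75 and lower quartiles between 3.92 and 4.01.

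Most of the listed genes read higher in induced than in non-induced NpBI-22 cells. The difference was above 0 for 32 of 38 genes, with a median of 0.31 on the log2 scale, while the median over all genes was 0.007. It ran from -0.61 for CYRIB to 1.34 for LRATD2. A 2-fold higher level was reached by 7 of 38 genes and a 2-fold lower one by 0, against 2.15% higher and 1.7% lower of all genes. In limma 5 of 38 lay past an adjusted p of 0.05 and were higher, namely LRATD2, MTSS1, FAM91A1, TMEM71 and KHDRBS3, and 0 were lower. Of all genes, 1.73% were called higher and 1.53% lower. An unadjusted p under 0.05 was found for 17 of 38 listed genes (44.7%), CYRIB alone of them lower, and for 21.2% of all genes. With any 1 of the 4 NpBI-22 arrays left out, limma called 0 rows of the whole array. Leaving out 1 of these arrays moved the difference by over 1.5 times in 21 of 38 listed genes and turned its sign in 10 of them. It did neither in the other 17, which include FAM91A1, MTSS1, LRATD2, TMEM71, MYC, ZFAT and KHDRBS3.

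Both induced NpBI-22 arrays were above both non-induced NpBI-22 arrays for 24 of 38 genes and below them for 1, beside 27.9% and 24.5% of all genes. Against all 4 other arrays, both induced NpBI-22 arrays were the highest for 22 of 38 genes, and the lowest for CYRIB alone. Over all genes these shares were 22.1% and 17.2%. For the 22 genes the margin over the highest of the other 4 arrays ran from 0.008 for DERL1 to 1.29 for LRATD2. The plot of every array by gene shows where the 2 induced NpBI-22 arrays separate from the others.

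**Figure D1:**
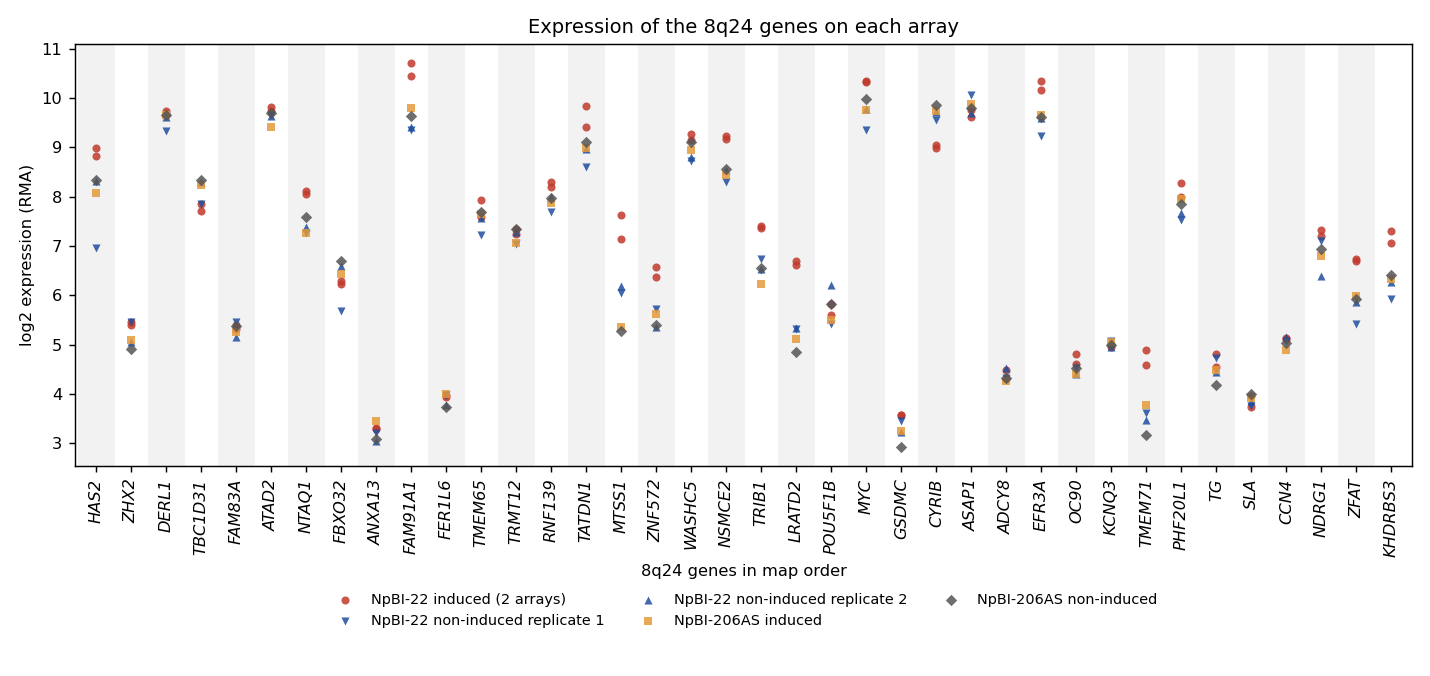
Log2 expression (RMA, vertical axis) of the 38 measured 8q24 genes in map order (horizontal axis) on each of the 6 arrays, 1 symbol per array. The 2 induced NpBI-22 arrays lie above the other 4 for 22 genes, among them MYC, LRATD2, FAM91A1 and KHDRBS3, and below them for CYRIB. The margin for the 22 runs from 0.008 (DERL1) to 1.29 (LRATD2).

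The brighter genes had the larger median difference. Genes were split at the mean level of the median row over all 6 arrays, 5.72. The 25 listed genes above it had a median difference of 0.54 between induced and non-induced NpBI-22 cells, and the 11059 genes of the array above it 0.039. Of these 25 genes, 5 were at least 2-fold higher and 3 were called higher, beside 2.76% and 2.29% of the 11059. Both induced NpBI-22 arrays were above the other 4 in 18 of 25 and below them in 1, beside 27.9% and 22.6%. Both MTSS1 and ZNF572 passed that level only through the induced NpBI-22 arrays. The 13 dimmer listed genes had a median of 0.097, and of these LRATD2 and TMEM71 were more than 2-fold higher. ANXA13 and GSDMC lay under the lower quartile on all 6 arrays and are not shown to be above background.

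By array, the 25 brighter genes had a median deviation from their own 6-array mean of 0.26 and 0.40 in induced NpBI-22 cells. In non-induced NpBI-22 cells it was -0.32 in replicate 1 and -0.15 in replicate 2. In NpBI-206AS cells it was -0.16 induced and -0.02 non-induced. The medians of both induced NpBI-22 arrays were thus above those of the other 4. The 25 genes include MTSS1 and ZNF572, which are among them only through their induced NpBI-22 values. Over all genes above the median row the 6 medians ran from -0.038 to 0.031.

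**Figure D2:**
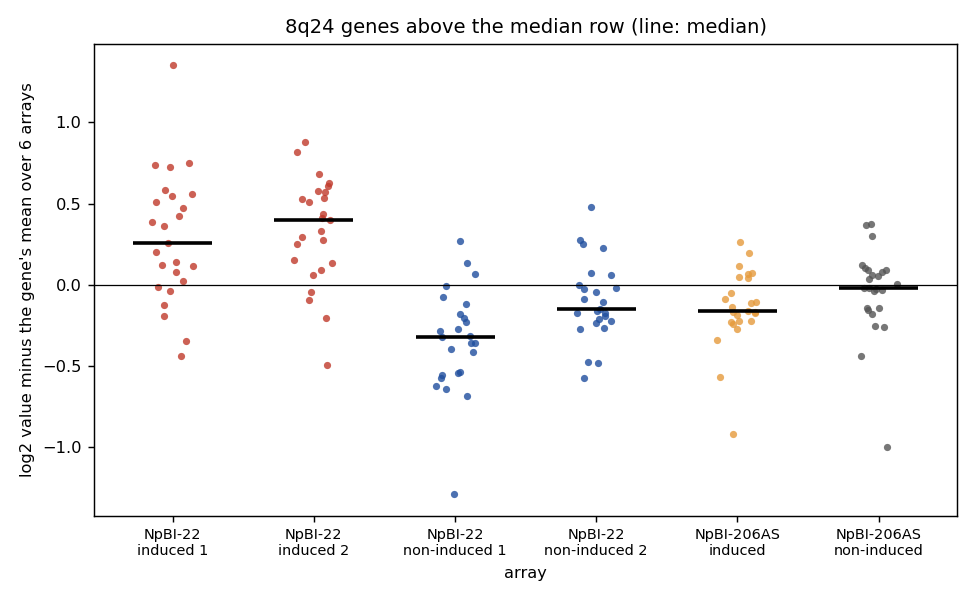
Deviation of each of the 25 brighter 8q24 genes from its own mean over 6 arrays (vertical axis, log2) on each array (horizontal axis), with 1 point per gene and a line at the median. The medians of the 2 induced NpBI-22 arrays, 0.26 and 0.40, are above those of the other 4, which lie between -0.32 and -0.02. MTSS1 and ZNF572 are among the 25 only through their induced NpBI-22 values.

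Along the map the differences were uneven. For description the list was divided, after its values were seen, at FAM91A1 and after MYC. The 9 genes from HAS2 to ANXA13 had a median difference of 0.17, the 14 genes from FAM91A1 to MYC 0.77 and the 15 genes from GSDMC to KHDRBS3 0.24. Both induced NpBI-22 arrays were above the other 4 in 4 of 9, 10 of 14 and 8 of 15 of these genes, beside 22.1% of all genes. Restricted to genes above the median row, the medians were 0.18 over 6 genes, 0.77 over 12 and 0.54 over 7. All genes above the median row had 0.039. The 12 include MTSS1 and ZNF572, which passed that level only through the induced NpBI-22 arrays.

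At the HAS2 end, HAS2 makes hyaluronan, the large sugar polymer of the pericellular matrix. It read 8.99 and 8.83 in induced NpBI-22 cells, against 6.96 and 8.33 in non-induced NpBI-22 cells, and 8.07 and 8.34 in induced and non-induced NpBI-206AS cells. The non-induced replicates were thus 1.36 apart, more than the difference between the groups, 1.27 (SE 0.43). Without replicate 1 that difference was 0.58, and without replicate 2 it was 1.95.

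DERL1, of the removal of misfolded proteins from the endoplasmic reticulum, and ATAD2, a chromatin ATPase with a bromodomain, differed by 0.24 (SE 0.17) and 0.13 (SE 0.15), DERL1 by 0.095 without non-induced replicate 1. ATAD2 read 9.74 and 9.82 in induced NpBI-22 cells and 9.65 and 9.64 in non-induced ones, with 9.42 and 9.69 in induced and non-induced NpBI-206AS cells. NTAQ1, which deamidates N-terminal glutamine for protein degradation, was higher by 0.76 (SE 0.15). TBC1D31, a centrosomal protein gene, differed by -0.30 (SE 0.20), and by -0.07 without non-induced replicate 2. The zinc finger homeobox gene ZHX2, FAM83A and the annexin gene ANXA13 differed by 0.17, 0.05 and 0.17.

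FBXO32 encodes atrogin-1, a ubiquitin ligase subunit of muscle wasting. It read 6.28 and 6.23 in induced NpBI-22 cells and 5.68 and 6.60 in non-induced NpBI-22 cells. In NpBI-206AS cells it read 6.43 induced and 6.70 non-induced. The induced values lay between the 2 non-induced replicates, and the difference of 0.12 (SE 0.31) turned to -0.34 without non-induced replicate 1.

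In the stretch from FAM91A1 to MYC, the first gene is FAM91A1, whose protein helps tether vesicles at the Golgi. It read 10.44 and 10.71 in induced NpBI-22 cells, against 9.35 and 9.42 in non-induced ones. NpBI-206AS cells had 9.81 induced and 9.63 non-induced. The groups did not overlap, and the induced cells were 2.28-fold higher (log2 difference 1.19, SE 0.17).

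MTSS1, a membrane-bending regulator of actin, had the widest range between groups. It read 7.62 and 7.15 in induced NpBI-22 cells and 6.04 and 6.18 in non-induced ones, and 5.35 and 5.27 in induced and non-induced NpBI-206AS cells. Both NpBI-206AS values were below all 4 NpBI-22 values. Within NpBI-22 cells the induced level was 2.42-fold the non-induced one (log2 difference 1.27, SE 0.21).

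LRATD2 had the largest difference of the list, 1.34 (SE 0.15), or 2.52-fold. It read 6.62 and 6.70 in induced NpBI-22 cells, against 5.32 and 5.33 in non-induced NpBI-22 cells. In NpBI-206AS cells it read 5.11 induced and 4.85 non-induced. The lower induced array was 1.29 above the highest of the other 4.

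The zinc finger gene ZNF572 read 6.57 and 6.38 in induced NpBI-22 cells and 5.72 and 5.36 in non-induced ones, with 5.61 and 5.40 in induced and non-induced NpBI-206AS cells (difference within NpBI-22 cells 0.93, SE 0.19). TRIB1, a pseudokinase that directs the ligase COP1 to its substrates, read 7.36 and 7.42 in induced NpBI-22 cells and 6.73 and 6.54 in non-induced ones. NpBI-206AS cells had 6.24 induced and 6.55 non-induced. For both genes all 4 other arrays lay below the 2 induced ones, and the TRIB1 difference within NpBI-22 cells was 0.76 (SE 0.16).

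Further genes of this stretch differed by less than 2-fold in either direction. The nuclease gene TATDN1 differed by 0.84 (SE 0.22), and by 0.92 (SE 0.18) on its other row. NSMCE2, a SUMO ligase of the SMC5/6 complex, differed by 0.79 (SE 0.16), WASHC5 of the WASH complex of endosomes by 0.44 (SE 0.15) and RNF139, a ubiquitin ligase of the endoplasmic reticulum, by 0.42 (SE 0.17). The mitochondrial membrane protein gene TMEM65 differed by 0.38 (SE 0.21), TRMT12, which modifies a tRNA, by 0.14 (SE 0.16), and the ferlin gene FER1L6 by 0.08 (SE 0.16). POU5F1B differed by -0.10 (SE 0.29). It is a near copy of POU5F1, so signal from that gene cannot be separated from it here.

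MYC itself read higher in induced NpBI-22 cells but was not past the threshold (limma adjusted p = 0.090). It read 10.35 and 10.34 there, against 9.35 and 9.78 in non-induced NpBI-22 cells, and 9.76 and 9.99 in induced and non-induced NpBI-206AS cells. Both induced NpBI-22 arrays were above the other 4, by 0.35 at the closest point. The difference within NpBI-22 cells was 0.78 (SE 0.19), or 1.72-fold, and was 0.57 without non-induced replicate 1. Compared with induced NpBI-206AS cells it was 0.59 (SE 0.24).

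Beyond MYC the next 4 measured genes of the list were GSDMC, CYRIB, ASAP1 and ADCY8, of which GSDMC alone was above 0. Between MYC and GSDMC lay LINC02912 and CCDC26, which were not on the list and were at or below the median row. They differed by -0.01 (SE 0.16) and 0.48 (SE 0.15). CYRIB, which binds RAC1 and restrains actin branching, read 9.05 and 8.99 in induced NpBI-22 cells, against 9.55 and 9.71 in non-induced ones, and 9.75 and 9.86 in induced and non-induced NpBI-206AS cells. Its difference within NpBI-22 cells was -0.61 (SE 0.15). The ARF regulator gene ASAP1 differed by -0.20 (SE 0.19), the adenylyl cyclase gene ADCY8 by -0.03 (SE 0.16) and GSDMC, of the gasdermin family, by 0.24 (SE 0.16). For GSDMC both induced NpBI-22 arrays were above the other 4, by 0.138, at levels under the lower quartile. EFR3A, which anchors a lipid kinase at the plasma membrane, was higher by 0.83 (SE 0.19). It read 10.16 and 10.35 in induced and 9.23 and 9.61 in non-induced NpBI-22 cells. NpBI-206AS cells had 9.67 induced and 9.61 non-induced. 

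TMEM71 read 4.89 and 4.59 in induced NpBI-22 cells and 3.61 and 3.48 in non-induced ones. NpBI-206AS cells had 3.78 induced and 3.16 non-induced. It was 2.28-fold higher in induced NpBI-22 cells (log2 difference 1.19, SE 0.17). Since the lower values are under the lower quartile, and not shown to be above background, this fold may be too small.

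PHF20L1, a reader of methylated lysines, differed by 0.54 (SE 0.17). The remaining differences were those of the otoconin gene OC90 (0.24, with both induced NpBI-22 arrays above the other 4), the thyroglobulin gene TG (0.10), the potassium channel gene KCNQ3 (-0.03), the lymphocyte adaptor gene SLA (0.04) and the matricellular protein gene CCN4 (0.01), with SE between 0.15 and 0.19.

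NDRG1, a gene of stress and differentiation, read 7.32 and 7.21 in induced NpBI-22 cells, against 7.09 and 6.39 in non-induced NpBI-22 cells. NpBI-206AS cells had 6.80 induced and 6.94 non-induced. The difference of 0.53 (SE 0.26) was 0.17 without non-induced replicate 2 and 0.88 without replicate 1.

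The list ends with a pair of genes that were both more than 2-fold higher. ZFAT, a zinc finger protein gene, read 6.69 and 6.73 in induced NpBI-22 cells, against 5.42 and 5.87 in non-induced ones, and 5.99 and 5.92 in induced and non-induced NpBI-206AS cells. KHDRBS3, an RNA-binding protein of alternative splicing, read 7.30 and 7.06 in induced NpBI-22 cells, against 5.92 and 6.28 in non-induced ones, and 6.33 and 6.41 in induced and non-induced NpBI-206AS cells. The differences within NpBI-22 cells were 1.07 (SE 0.20) and 1.08 (SE 0.19). Neither gene's induced NpBI-22 arrays overlapped any other array.

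Between the same borders lay 13 single-symbol genes that were not on the list, with a median difference of 0.036. Most were dim, and only SQLE and NDUFB9 were above the median row. SQLE, the squalene epoxidase of cholesterol synthesis, differed by 1.02 (SE 0.17), and NDUFB9, a subunit of respiratory complex I, by 0.04 (SE 0.16). SQLE was also higher in the induced than in the non-induced NpBI-206AS array, with 10.20 against 9.58.

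Just outside the KHDRBS3 border the nearest measured genes, FAM135B, COL22A1 and KCNK9, differed by -0.22, -0.18 and -0.46, and all of them were at or below the median row. Of the 20 nearest genes on that side 0 were 2-fold higher. Their median was -0.107, and that of the 12 above the median row was 0.087, so its sign depends on the dim rows. On the HAS2 side, SNTB1, MTBP and MRPL13 differed by -0.65, 0.15 and 1.04, with MTBP at -0.071 and MRPL13 at 0.63 without non-induced replicate 1. There 3 of the 20 nearest genes were 2-fold higher, with a median of 0.118. Against non-induced replicate 2 alone 1 of the 20 was 2-fold higher and the median was 0.072. Against replicate 1 alone these were 3 and 0.37. HAS2 itself, with replicates far apart, is the first gene inside.

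Among genes above the median row, the rest of chromosome 8 had a median difference of 0.172 over 286 genes on the HAS2 side and -0.02 over 75 genes on the KHDRBS3 side. The medians of the 22 other chromosomes with at least 120 such genes ran from -0.028 to 0.096, and 1 chromosome with 1 such gene was left out. These are descriptions of 4 arrays, and no test of the segment against the rest was made.

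**Figure D3:**
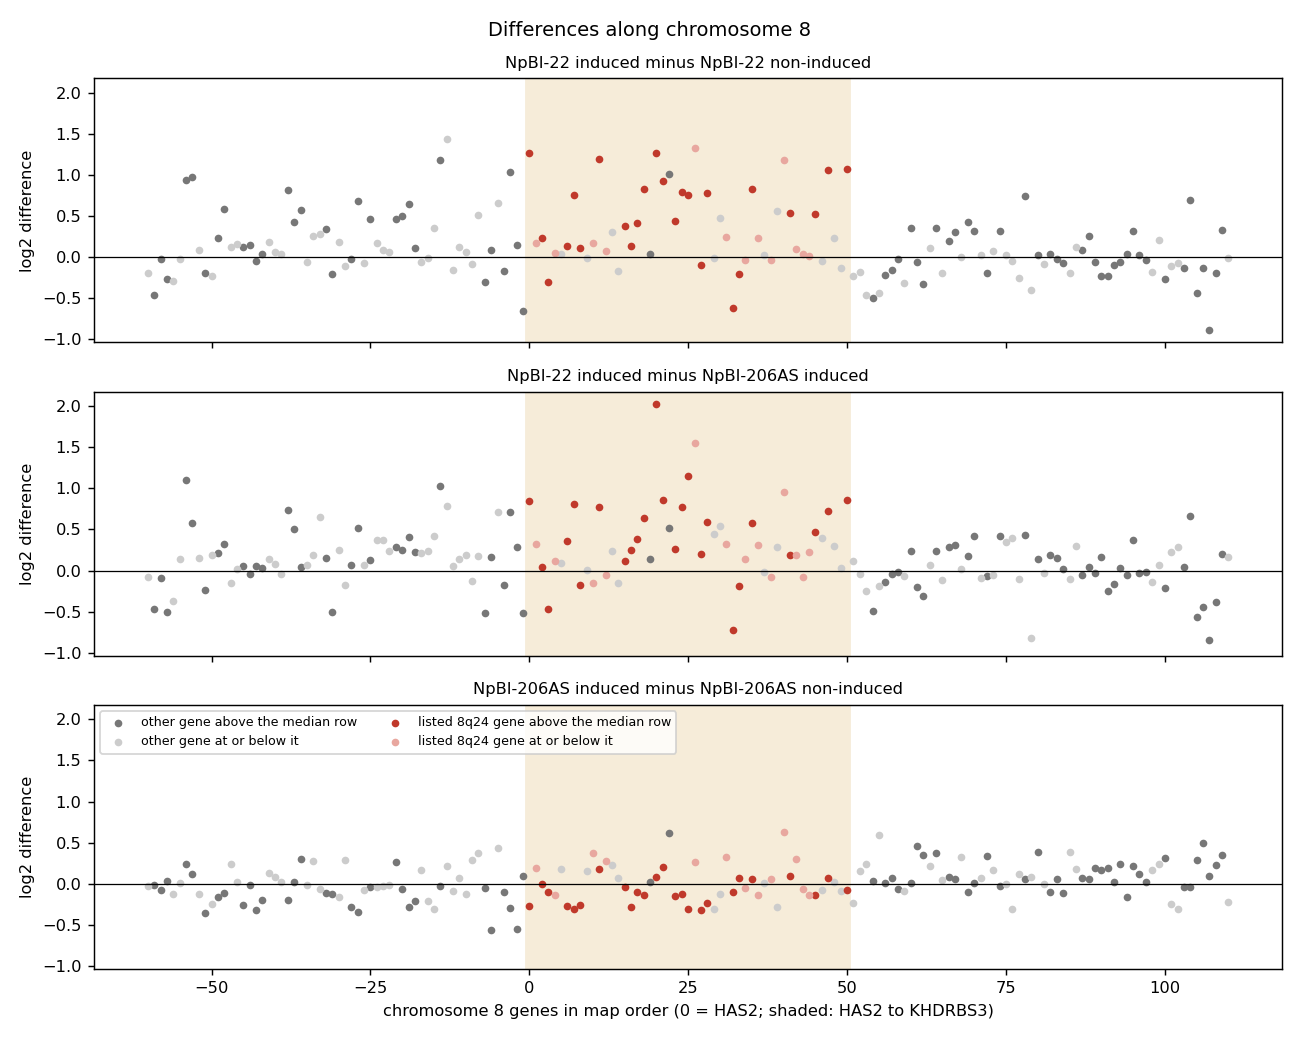
Log2 difference (vertical axis) of chromosome 8 genes in map order (horizontal axis, 0 at HAS2, 60 genes shown on either side of the shaded segment), with listed genes in red and pale red and other genes in grey. In the top and middle panels, where induced NpBI-22 cells are set against non-induced NpBI-22 and induced NpBI-206AS cells, listed genes reach 1.34 and 2.03; in the bottom panel, for NpBI-206AS cells, they lie between -0.32 and 0.63.

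The comparison of induced NpBI-22 with induced NpBI-206AS cells holds doxycycline equal and shares the induced NpBI-22 arrays with the one above. Its median over the listed genes was 0.32, against 0.036 over all genes, with 30 of 38 genes above 0. MTSS1 (2.03, SE 0.25), LRATD2 (1.55, SE 0.18) and TRIB1 (1.15, SE 0.19) were at least 2-fold higher, and 0 were 2-fold lower, beside 1.76% higher and 1.88% lower of all genes. LRATD2 alone lay past limma's threshold, beside 0.168% of all genes called higher and 0.076% lower. That call was lost with quantile normalization applied again and with cyclic loess (0 listed genes called in each). With any 1 NpBI-22 array left out the LRATD2 difference ran from 1.514 to 1.588. The single NpBI-206AS array was assumed to vary like NpBI-22 arrays.

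In NpBI-206AS cells the induced array did not show the pattern. Of 38 genes 15 were higher and 23 lower in the induced than in the non-induced array, with a median of -0.075, where all genes had 0.003. The range was -0.32 to 0.63, and 0 genes were 2-fold apart in either direction, as were 0.0434% higher and 0.0652% lower of all genes. With 1 array per condition this has no replicate check. The NpBI-22 response minus the NpBI-206AS response had a median of 0.42 over the listed genes and was above 0 for 29 of 38. In limma 0 rows of the array passed in that comparison, with 10 of 38 listed genes (26.3%) and 8.01% of all genes at an unadjusted p under 0.05. Those genes were part of the list's choice, so their number is a description.

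Without induction no listed gene passed the test between the lines. Non-induced NpBI-206AS minus non-induced NpBI-22 cells gave a median of 0.145, or 0.05 against replicate 2 alone, the NpBI-22 array of the same code prefix. No listed gene was 2-fold apart, beside 0.217% of all genes higher and 0.185% lower. Limma called 0 rows, with 1145 rows at an unadjusted p under 0.05. Of 38 listed genes 2 had such a p (5.26%), as had 2.39% of all genes. They were MTSS1, at -0.84 (SE 0.25, limma adjusted p = 0.93), and LRATD2, at -0.48 (SE 0.18, limma adjusted p = 0.93), both lower in the NpBI-206AS array and neither past the threshold.

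The 2 non-induced NpBI-22 replicates were not alike in the segment. Replicate 1 read lower than replicate 2 in 24 of 38 genes, and in 20 of the 25 above the median row, with medians of -0.123 and -0.24. Over all genes the median was 0.015, with 8709 of 18417 lower, and over those above the median row -0.038, with 6020 of 11059 lower. Such a gap was not particular to the segment. Above the median row, the rest of chromosome 8 on the HAS2 side had a median of -0.188, with 201 of 286 genes lower. On the KHDRBS3 side it was 0.195, with 16 of 75 lower. A gap of more than 0.5 separated the non-induced replicates in 4 listed genes, HAS2, FBXO32, POU5F1B and NDRG1. Between the induced replicates 0 listed genes had such a gap. The share of all genes with such gaps was not counted. Against replicate 2 alone the median over the listed genes was 0.32, and 4 of the 7 genes that were 2-fold higher remained so, FAM91A1, MTSS1, LRATD2 and TMEM71.

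Genes that work with MYC were read beside it. Over all genes in this comparison the median was 0.007, 1.73% were called higher, 1.53% were called lower and 21.2% had an unadjusted p under 0.05, and the counts of this and the following lists are to be read beside these shares. Of 23 measured partners and regulators of MYC, limma called 0 in either direction, with 4 at an unadjusted p under 0.05, and the median difference between induced and non-induced NpBI-22 cells was -0.05. The largest differences were those of MYCN, a close relative of MYC, at 0.73 (adjusted p = 0.13), and MLXIP, a partner in the wider MYC network, at -0.73 (adjusted p = 0.31). MLXIP had non-induced replicates 1.04 apart and was at -0.208 without replicate 1. MAX differed by -0.09 (adjusted p = 0.88), and by 0.211 without non-induced replicate 2.

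Of 30 measured genes that MYC is known to raise, 0 rose and 1 fell, with 6 at an unadjusted p under 0.05, 15 above and 15 below 0 and a median of -0.01. The gene that fell was NOLC1, a nucleolar protein gene, by 1.48 on the log2 scale (SE 0.16, limma adjusted p = 0.021). With any 1 NpBI-22 array left out the NOLC1 difference ran from -1.57 to -1.385. CCND2, the cyclin D2 gene, differed by 1.40 (adjusted p = 0.066) and was the only 1 of the 30 at least 2-fold higher. At least 2-fold lower were 2 of the 30, NOLC1 and NOP58 (adjusted p = 0.064 for NOP58). IPO4 differed by -0.93 (adjusted p = 0.053). Of 7 genes that MYC is known to lower, 0 passed, with 1 at an unadjusted p under 0.05 and a median of 0.125. The widest among them was CDKN1B, a brake on the cell cycle, at 0.84 (adjusted p = 0.063).

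Other hyaluronan genes did not pass either. Limma called 0 of 11, with 2 at an unadjusted p under 0.05 and a median of 0.11. HMMR, a hyaluronan-binding protein of the mitotic spindle, differed by -0.93 (adjusted p = 0.082) and CEMIP2, a hyaluronan-degrading protein, by -0.50 (adjusted p = 0.26), or -0.299 without non-induced replicate 2. Beside FBXO32, 0 of 9 genes of muscle atrophy and FOXO signalling passed, with 2 at an unadjusted p under 0.05 and a median of 0.29. The myostatin gene MSTN had 1.20 (adjusted p = 0.099), or 0.782 without non-induced replicate 1.

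**Figure D4:**
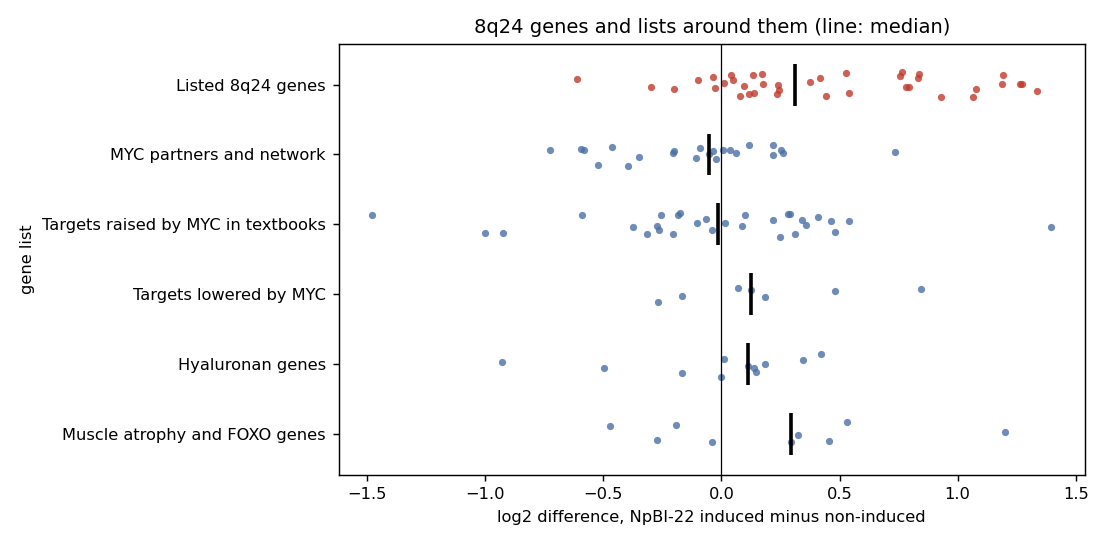
Log2 difference between induced and non-induced NpBI-22 cells (horizontal axis) for each gene of 6 lists (vertical axis), with 1 point per gene and a line at each median. The listed 8q24 genes have a median of 0.31, and the MYC partners and MYC-raised targets have medians of -0.05 and -0.01.

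Other differences between the same arrays stand beside these. Of 12 skeletal muscle and rhabdomyosarcoma markers, DES, MYH3 and MYH8 fell and 0 rose in induced NpBI-22 cells, with 7 at an unadjusted p under 0.05 and a median of -0.62. With any 1 NpBI-22 array left out, DES ran from -1.221 to -0.925, MYH3 from -2.992 to -2.593 and MYH8 from -2.301 to -1.86. The summed linear signal of the 12 markers was 5180 to 5570 in induced and 7040 to 8310 in non-induced NpBI-22 cells, and 6120 to 6900 in NpBI-206AS cells. Induced NpBI-22 minus induced NpBI-206AS cells gave the 12 a median of -0.374, with 3 above and 9 below 0. In that comparison 0 were 2-fold apart and 0 were called. Non-induced NpBI-206AS cells read lower than non-induced NpBI-22 cells for all 12, with a median of -0.246. Of these, 3 were at least 2-fold lower and 0 were called. The muscle regulator genes MYOD1 and MYOG differed by -0.53 (adjusted p = 0.24) and -0.69 (adjusted p = 0.16). With 1 array left out MYOD1 ran from -0.791 to -0.272 and MYOG from -0.939 to -0.448. Limma called 0 of 6 epithelial, 5 blood, 5 endothelial and 5 fibroblast markers, with 0, 1, 1 and 1 at an unadjusted p under 0.05. Summed signals of the epithelial markers were 1620 to 1710 in induced and 1160 to 1460 in non-induced NpBI-22 cells, and those of the fibroblast markers 4850 to 4880 and 4070 to 4990. No blood marker was above the array's median on any array. The part of the muscle genes or of the code prefix in the 8q24 differences was not tested.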

How the data were processed

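Total RNA of 6 cultures was hybridised to 1 Affymetrix gene array each. The deposited values are on a log2 scale. Per the submitters' processing notes the authors used Partek and RMA, with versions not stated. RMA subtracts background, quantile-normalizes arrays and summarises probes, so a shift shared by all transcripts is removed. The table has 33297 rows. Rows were named through the platform annotation, and gene IDs gave the current symbols from the NCBI gene table (GRCh38.p14): 19460 rows had a single symbol, of which 19429 matched, 1754 had several and 12083 none. A gene took its row with the highest mean over 6 arrays. Map order came from that gene table; the array's own genome build is not given in the sources used here.

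One limma model (limma 3.58.1, R 4.3.3) with a mean per group was fitted over all 6 arrays and all rows, with eBayes moderation (2 residual and 3.62 prior degrees of freedom), two-sided p and Benjamini-Hochberg adjustment over all rows at 0.05. The model was also run on simulated arrays with independent values and no effect of the code prefix, so that run cannot speak to the prefix. Induced minus non-induced NpBI-206AS, with 1 array each, was described by differences only. Against an NpBI-22 group the lone NpBI-206AS array entered the fit and was assumed to vary like the NpBI-22 arrays. Members and lists were chosen with earlier results of these data known. Genes given with all arrays are those called, those at least 2-fold apart between group means, and MYC, HAS2, FBXO32, NDRG1, TRIB1, ATAD2 and KHDRBS3; CYRIB, EFR3A and other members were added after their values were seen. Replicates are called biological by the series, and p-values rest on the spread between them, moderated by that of all rows. The 2 induced NpBI-22 arrays share a code prefix and the 2 non-induced ones do not. That spread thus mixes arrays of the same and of different prefixes. No spread was measured in NpBI-206AS cells. Alternatives were other normalizations, centring, a filter on dim rows, averaged rows, a replicate block and leaving out each NpBI-22 array.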

Additional observations from a re-analysis of the deposited data

How the results depend on the processing

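The median difference of the listed genes kept its sign in every comparison under every alternative run. Without the dimmest 50 percent of the 33297 rows, 2611 rows were called between induced and non-induced NpBI-22 cells, in place of 1200. Of these 1238 were higher and 1373 lower. Of the 25 listed genes left in, 11 were called higher and 1 lower, CYRIB, in place of 5 and 0 of 38. The share of all genes called was not counted after this filter, so the counts of listed genes are a description. MTSS1 and ZNF572, among the 11, pass this filter only through the induced NpBI-22 arrays, where they are high, so their calls after it support nothing. The medians over the remaining 25 listed genes were then 0.541 in that comparison, 0.469 against induced NpBI-206AS cells, 0.667 for the difference between the responses and 0.225 between the non-induced lines. Against induced NpBI-206AS cells 747 rows were called in place of 130, and 2 listed genes, MTSS1 and TRIB1, in place of 1, LRATD2, which is too dim to stay in; the same limit holds for MTSS1 here. LRATD2 was not called (0 listed genes) after quantile normalization was applied again or after cyclic loess. With arrays centred on their medians, the split of 531 rows higher and 669 lower became 718 and 574, and the median for the difference between the responses was 0.516. Leaving out each NpBI-22 array gave 0 called rows and 0 called listed genes in each comparison, with medians of 0.254 to 0.43 for induction in NpBI-22 cells, 0.368 to 0.532 for the difference between the responses, 0.05 to 0.255 between the non-induced lines, and 0.315 to 0.328 against induced NpBI-206AS cells; fewer arrays leave 1 residual degree of freedom. With a replicate block, run for induction in NpBI-22 cells alone, 2955 of 33297 rows were called, 1327 higher and 1628 lower. There 12 of 38 listed genes were called, and the share of all genes was not counted. The replicate numbers only name the samples: deviations of equal numbers correlated at 0.196 over rows, and the labels give no shared culture or day. The number of arrays limits all calls.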
